A study of Mus musculus with 36 samples.

Results

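The effect of removing *Mlkl* from adipocytes was examined in visceral white adipose tissue (visWAT) of mice fed a high-fat diet (HFD). The comparison took the visWAT libraries of 5 *Mlkl* Adi-KO mice (numbered 151, 152, 153, 156 and 157) and 5 WT mice (154, 155, 161, 162 and 164) by their labels, 10 of the 36 libraries of the series. All were male C57BL/6J mice that had started the diet at 16 weeks of age and stayed on it for 16 weeks. The *Mlkl* Adi-KO mice carried loxP-flanked *Mlkl* alleles and an Adipo-Cre transgene, which acts in mature adipocytes. The WT mice were littermates with the same loxP-flanked alleles and no Cre, so no library came from a mouse with Cre and intact *Mlkl*, and effects of *Mlkl* loss, of the transgene and of the DNA inherited with it cannot be told apart here. Each library came from the whole fat pad of 1 mouse, and the Cre transgene is not directed at the macrophages, stromal cells and vessels it contained. The 8 visWAT libraries from mice on normal chow (NCD; 4 per genotype) and the livers of the same mice were used only for single values.

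MLKL is the last component of necroptosis, a form of cell death in which the kinase RIPK3 phosphorylates MLKL and MLKL then breaches the plasma membrane. Fat tissue is a mixture: the large lipid-filled adipocytes lie among blood vessels, fibroblast-like progenitors and immune cells. In obesity, macrophages collect around adipocytes and take on a lipid-handling program marked by genes such as *Spp1*, *Gpnmb* and *Itgax*. An RNA level measured in the whole pad therefore joins how many cells of a type there are with how much RNA each holds; in these bulk samples fewer cells of a type and less RNA per cell cannot be told apart.

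Levels are given in FPKM, fragments per kilobase of gene scaled to the size of the library, as deposited. The libraries held 21580696 to 29473670 reads on genes. *Mlkl* itself, ENSMUSG00000012519, lies on the minus strand at 112038429 to 112064809 of chromosome 8 (GRCm39). It was at 2.39, 2.68, 2.72, 2.55 and 2.32 FPKM in *Mlkl* Adi-KO mice 151, 152, 153, 156 and 157 and at 4.58, 5.19, 4.88, 5.50 and 6.28 FPKM in WT mice 154, 155, 161, 162 and 164. The same order of mice is kept below. All 5 knockout libraries lay under all 5 WT libraries, and the mean fell to 0.479 of the WT mean (log2 fold change −0.83, SE 0.07, adjusted p = 0.00162, limma). The RNA that was left was not assigned to a cell type. *Ripk3*, the kinase upstream of MLKL, spanned 3.41 to 6.62 FPKM in the knockout group, a range that enclosed the 4.46 to 5.63 FPKM of the WT group. Of the 13 necroptosis genes tested, limma called *Mlkl*, where it called 0.0215% of all genes. DESeq2, which called 1.4% of all genes, called *Mlkl* and *Birc3*, which encodes an inhibitor of apoptosis. *Birc3* did not overlap between the genotypes, at 2.21 to 3.19 against 3.35 to 4.11 FPKM (adjusted p = 0.221, limma; 0.0479 by DESeq2).

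Macrophage markers were unevenly distributed among the knockout pads. The 16 macrophage markers were averaged on the log2(FPKM + 1) scale and set against the WT mean. By this measure the *Mlkl* Adi-KO mice stood at −0.56, −0.08, 0.14, −1.29 and −1.39, and the WT mice at −0.27, 0.23, 0.22, −0.14 and −0.04. Mice 151, 156 and 157 were below every WT mouse, whereas mice 152 and 153 lay inside the WT range. The spread of the knockout mice, 1.53 log2 units from lowest to highest, compared with 0.50 among the WT mice, and all 16 markers had the larger SD in the knockout group. All 16 had a lower knockout mean, with a median log2 fold change of −0.66 beside 0.00 over the 13963 genes tested, where 50.2% were lower. No marker separated the genotypes completely and neither limma nor DESeq2 called one.

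*Lyz2*, which encodes lysozyme, was at 860, 1300, 1330, 465 and 453 FPKM in *Mlkl* Adi-KO mice and 1072, 1427, 1316, 1047 and 1194 FPKM in WT mice. *C1qb*, a chain of complement C1q, was at 358, 480, 577, 218 and 212 FPKM against 444, 668, 685, 476 and 547 FPKM. The higher of mice 156 and 157 held 44.5% of the lowest WT value of *Lyz2* and 49.0% of that of *C1qb*, and mice 152 and 153 overlapped the WT group in both genes.

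The lipid-associated macrophage program followed the same mice. Its 16 genes averaged −0.41, 0.04, 0.15, −1.27 and −1.54 in *Mlkl* Adi-KO mice relative to the WT mean, beside −0.36 to 0.27 in WT mice. *Spp1*, encoding osteopontin, was at 15.5, 45.4, 45.1, 6.03 and 4.46 FPKM in the knockout group and at 29.0, 50.8, 51.7, 29.1 and 41.3 FPKM in the WT group. *Gpnmb*, a lysosomal glycoprotein of lipid-laden macrophages, was at 164, 251, 281, 58.1 and 33.1 FPKM against 180, 338, 321, 233 and 267 FPKM. The highest knockout value of *Gpnmb* was 8.51 times the lowest, and neither gene was called (adjusted p = 0.241 and 0.245, limma).

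The list mean of tissue-resident macrophage markers did not share this spread. The 10 tested genes, such as *Lyve1*, *Cd163* and *Mrc1*, averaged 0.02, 0.10, 0.04, −0.21 and 0.10 in *Mlkl* Adi-KO mice, beside −0.31 to 0.27 in WT mice. Their median log2 fold change was 0.13, with 6 higher and 4 lower, and single members ran from −0.58 to 0.49. *Selenop*, the most abundant member, was at 377, 458, 529, 328 and 272 FPKM against 464 to 605 FPKM (−0.45, adjusted p = 0.221, limma). For this gene mice 151, 152, 156 and 157 lay below every WT mouse. The mast cell list was lower in each of its 5 tested genes (median −0.88), and *Cma1*, a mast cell protease, was at 6.11 to 17.6 FPKM in the knockout group and 14.3 to 31.9 FPKM in the WT group. On NCD the macrophage list lay between −2.73 and −1.96 on the same scale over all 8 mice, so the lowest HFD knockout pads were still above every NCD pad. A plot of the list means shows these positions mouse by mouse.

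**Figure D1:**
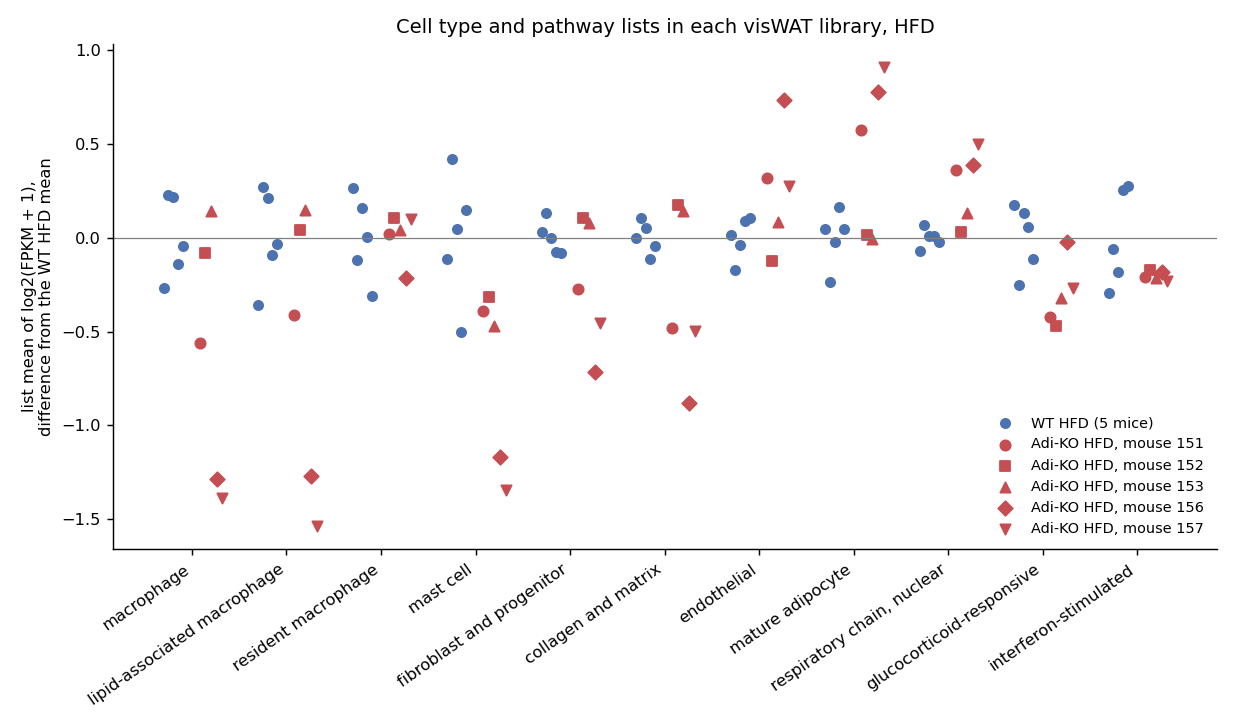
Mean log2(FPKM + 1) of each gene list in each HFD visWAT library, as the difference from the WT HFD mean (y axis), for cell type and pathway lists (x axis); blue points are the 5 WT mice and red symbols the 5 Mlkl Adi-KO mice. Mice 156 and 157 lie lowest for macrophage markers (−1.29 and −1.39) and highest for mature adipocyte markers (0.78 and 0.91), while mice 152 and 153 stay within the WT range for both.

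Adipocyte markers ran the other way in the same mice. The 26 mature adipocyte genes averaged 0.57, 0.02, −0.01, 0.78 and 0.91 in *Mlkl* Adi-KO mice, beside −0.24 to 0.17 in WT mice. Of these genes 24 had a higher knockout mean (49.8% of all genes did), with a median log2 fold change of 0.38 and no complete separation. From this list limma called 0 genes and DESeq2 called 1 as higher, where DESeq2 called 0.816% of all genes in that direction. *Adipoq*, encoding the adipokine adiponectin, was kept out of the list in case the Adipo-Cre transgene uses its promoter. The promoter of the transgene was not named in the sources used here. *Adipoq* was at 1828, 1018, 891, 1994 and 1947 FPKM in the knockout group and at 989, 743, 890, 961 and 972 FPKM in the WT group (log2 fold change 0.68, SE 0.24, adjusted p = 0.221, limma). *Cfd*, encoding the adipokine adipsin, was at 1907, 354, 308, 3853 and 2799 FPKM against 438, 204, 381, 590 and 331 FPKM. The resistin gene *Retn* followed it, at 284, 117, 122, 519 and 690 FPKM against 92.5 to 182 FPKM. Mice 152 and 153 had ordinary WT levels of both.

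Stromal and vascular lists differed between the same mice. The 18 fibroblast and progenitor genes averaged −0.27, 0.11, 0.08, −0.72 and −0.45 in *Mlkl* Adi-KO mice, beside −0.08 to 0.13 in WT mice, and 15 of 18 had a lower knockout mean (median −0.21). *Col3a1*, a fibrillar collagen of connective tissue, was at 134, 277, 268, 70.1 and 114 FPKM in the knockout group and at 170 to 246 FPKM in the WT group, so knockout mice lay both above and below all WT mice. The 27 collagen and matrix genes had a median of −0.28, with 25 lower. Of the 14 endothelial genes 13 had a higher knockout mean (median 0.24). One of them, *Egfl7*, which is secreted by endothelial cells, separated the groups at 42.9, 25.4, 30.6, 49.1 and 35.8 FPKM against 19.7, 21.5, 19.96, 21.8 and 23.7 FPKM (log2 fold change 0.72, SE 0.16, adjusted p = 0.221, limma; 0.00205 by DESeq2).

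**Figure D2:**
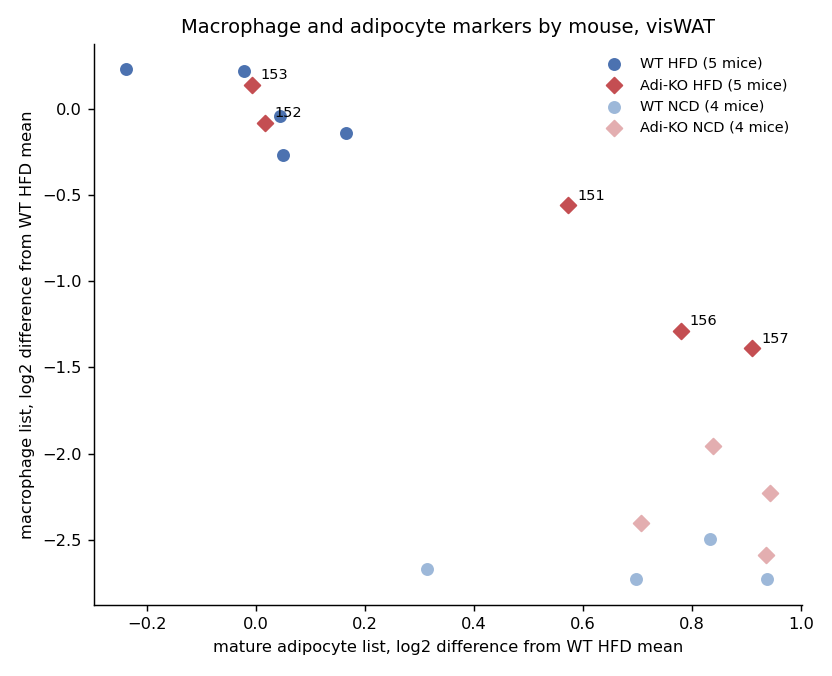
Macrophage list mean (y axis) against mature adipocyte list mean (x axis) in all 18 visWAT libraries, both as log2 differences from the WT HFD mean; circles are WT and diamonds Mlkl Adi-KO, with dark colors for HFD and pale colors for NCD. Knockout mice 152 and 153 sit among the 5 HFD WT mice. Mice 151, 156 and 157 lie at higher adipocyte values (0.57 to 0.91), inside the NCD range (0.31 to 0.94). Their macrophage values (−1.39 to −0.56) lie between those of the HFD WT mice and the NCD pads.

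Most genes varied more among the knockout mice. The median SD of log2(FPKM + 1) across genes was 0.154 in *Mlkl* Adi-KO mice, beside 0.106 in WT mice, and 10105 of 13963 genes (72.4%) were more variable in the knockout group. Counting each knockout mouse against the range of the 5 WT mice, mouse 156 had 4507 genes above and 4704 below it, and mouse 157 had 4527 above and 4619 below. Mouse 151 had 4041 above and 4446 below. Mouse 152 had 1701 above and 1596 below, and mouse 153 had 1972 above and 1816 below. WT mice, each set against the range of the other 4, had 2175 to 3845 genes above and 1749 to 4047 below, with mouse 155 at 3845 and 4047.

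Against this spread limma called 3 of 13963 genes (0.0215%), with 2 in the higher direction (0.0143%) and 1 in the lower (0.00716%). The unadjusted p was under 0.05 for 3003 genes (21.5%). edgeR on the reads recovered from the FPKM values also called 3 genes. DESeq2 called 146 of the 10419 genes it gave an adjusted p (1.4%), 85 higher (0.816%) and 61 lower (0.585%), of which 103 did not overlap between the groups. Complete separation of the 5 knockout from the 5 WT mice was found for 420 genes (3.01%), 198 of them higher (1.42%) and 222 lower (1.59%). The balance of directions depended on the scaling: with the values rescaled to TPM, where the median of all genes was −0.08, 490 genes separated, 65 higher and 425 lower. The exact permutation test of 5 against 5 mice cannot give a two-sided p below 0.00794, and each separated gene named here had that value.

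Large decreases and large increases differed in how they separated the groups. Of the 28 genes with a log2 fold change of −1 or lower, 0 separated the genotypes. In that direction 1.59% of all genes did, so 0 of 28 is near the share of all genes. Mice 151, 156 and 157 each lay under the WT range in 25 of these 28 genes, mouse 152 in 4 and mouse 153 in 0. Immune genes such as *Spp1*, *Gpnmb*, *Itgax* (42.0 ± 5.46 FPKM in WT, SD, n = 5; 23.9 ± 15.1 in knockout, n = 5) and the lysosomal proton pump subunit *Atp6v0d2* (57.1 ± 11.1 and 33.2 ± 25.8) were among them. Of the 19 genes with a log2 fold change of 1 or higher, 6 separated the groups, where 1.42% of all genes did so in that direction. Red blood cell genes made up 5 of the 19.

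To set content apart from the rest, the genotype difference was fitted again with the macrophage list mean of each mouse as a covariate. In that fit 7 genes were called (0.0501%), 5 of them higher (0.0358%) and 2 lower (0.0143%); with the lipid-associated list in its place 6 were called (0.043%). The unadjusted p was under 0.05 for 761 genes in place of 3003. The macrophage list median was −0.03, which is near 0 by construction because the covariate is the mean of that list, and the lipid-associated list median was 0.09. *Spp1* was at 0.05 and *Gpnmb* at 0.05, and of the 28 large decreases 23 had less than 50% of their size left. So did 9 of the 19 large increases. Of the 2599 overlapping genes with an unadjusted limma p under 0.05 in the first fit, 1392 did as well. The covariate was itself below the WT range in 3 of the 5 knockout mice, and without mouse 152 the fit called 2 genes and without mouse 153 it called 1.

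In a further fit each library was scaled to its mature adipocyte list, which asks for a difference at equal adipocyte marker level. This lowered the log2 fold change of every gene by the same amount and moved the median of all genes to −0.45. A scaled value set beside −0.45 therefore repeats the change as deposited and gives no further reading of content. *Gsta4* was the only call (0.00716%). The macrophage list was then at −1.11, the fibroblast list at −0.66 and the nuclear respiratory chain genes at −0.19. This fit was unstable: without mouse 152 it called 8377 genes, 8364 of them lower, and without mouse 153 it called 9049, 9028 of them lower, while leaving out any other mouse gave 0 to 2 calls.

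*Gsta4* encodes a glutathione S-transferase that conjugates 4-hydroxynonenal, a product of lipid peroxidation. The gene (ENSMUSG00000032348, chromosome 9 of GRCm39, 78090056 to 78116631, plus strand) was at 21.4, 12.7, 9.08, 30.3 and 28.2 FPKM in *Mlkl* Adi-KO mice and at 5.08, 3.02, 2.31, 5.31 and 2.85 FPKM in WT mice. Every knockout mouse lay above every WT mouse, mice 152 and 153 included. The mean was 5.48 times the WT mean (log2 fold change 2.10, SE 0.33, adjusted p = 0.0998, limma; 5.51e-09 by DESeq2). It rose in the fit with the macrophage covariate (1.43, SE 0.16, adjusted p = 0.0136, limma) and at equal adipocyte marker level (1.64, adjusted p = 0.014, limma). The first call was lost without knockout mouse 152 or 153, and the second without knockout mouse 151 or 157 or WT mouse 155, 161 or 164; the fold as deposited stayed between 1.93 and 2.34 with any 1 mouse left out. Of the 34 glutathione and antioxidant genes tested, 28 had a higher knockout mean (median 0.23), and *Gsta4* alone separated the groups. Over all genes tested, 1.42% separated in the higher direction.

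*Bckdhb*, a subunit of the enzyme complex that commits branched-chain amino acids to breakdown, was at 58.9, 37.4, 37.3, 60.3 and 64.6 FPKM in *Mlkl* Adi-KO mice and at 25.1, 21.1, 24.2, 26.3 and 25.3 FPKM in WT mice. The groups did not overlap, and the knockout mean was 2.12 times the WT mean (log2 fold change 1.02, SE 0.16, adjusted p = 0.113, limma; 9.67e-07 by DESeq2). Of the 22 genes of branched-chain amino acid catabolism, 21 had a higher knockout mean with a median of 0.25. *Bckdhb* was the only separated one, where 1.42% of all genes separated in the higher direction. With the macrophage covariate that median was 0.03 and *Bckdhb* was at 0.70 (SE 0.10, adjusted p = 0.0537, limma).

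**Figure D3:**
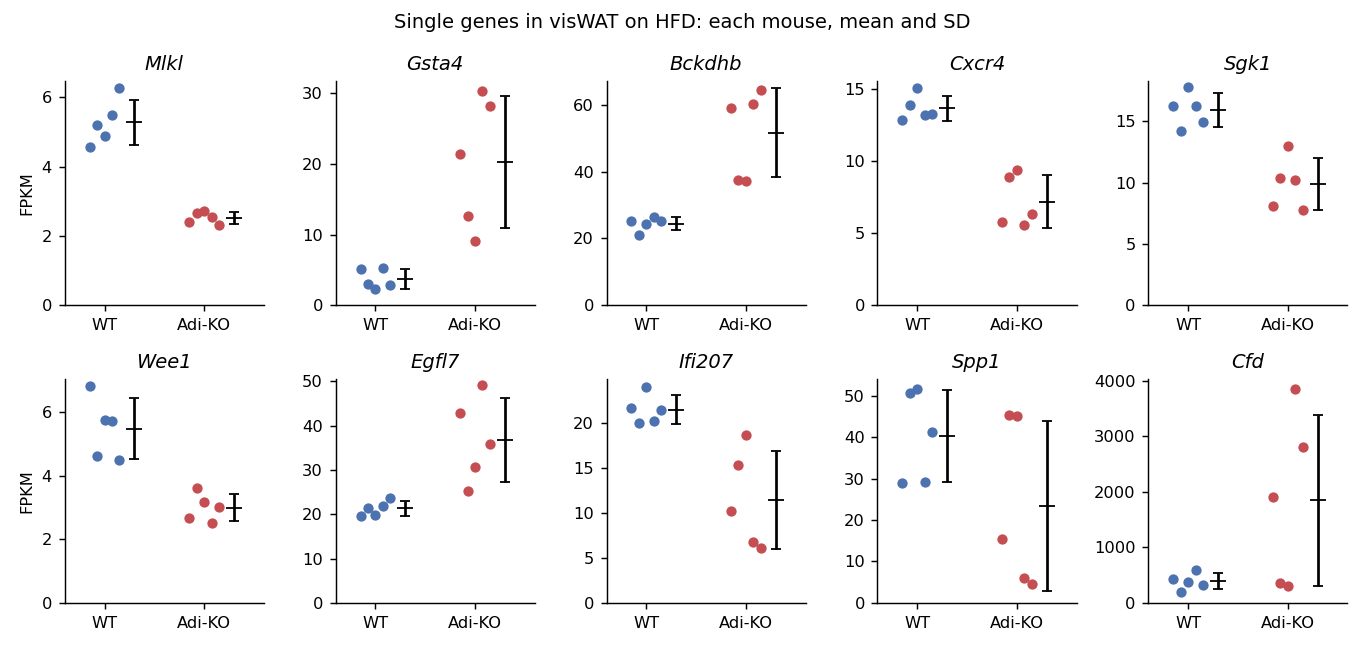
FPKM (y axis, linear from 0) of single genes in each HFD visWAT library, with points for the 5 WT (blue) and 5 Mlkl Adi-KO mice (red) and bars for the mean and SD. Mlkl, Gsta4, Bckdhb, Cxcr4, Sgk1, Wee1, Egfl7 and Ifi207 separate the genotypes in all 10 mice, while for Spp1 and Cfd 2 knockout mice lie within the WT range.

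Mitochondrial genes had slightly higher knockout means in nearly every member. Of the 72 nuclear genes of the respiratory chain tested, 71 had a higher knockout mean and 9 separated the groups (12.5%, beside 1.42% of all genes). The list averaged 0.36, 0.03, 0.13, 0.39 and 0.50 in *Mlkl* Adi-KO mice, beside −0.07 to 0.07 in WT mice, so mouse 152 lay in the WT range and mouse 153 above it. The median log2 fold change was 0.27, with 0.13 left under the macrophage covariate, where 72 of 72 had a positive sign. At equal adipocyte marker level it was −0.19, the unscaled median less the shift common to every gene in that fit. The list mean less the mature adipocyte list mean was −0.21, 0.01, 0.14, −0.39 and −0.41 in *Mlkl* Adi-KO mice. In WT mice it was −0.15 to 0.31, so mice 151, 156 and 157 lay below every WT mouse. Of these genes 0 were called by limma and 9 by DESeq2, which called 0.816% of all genes in the higher direction.

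*Cox8a*, a subunit of cytochrome c oxidase, was at 651, 446, 457, 687 and 711 FPKM in the knockout group and at 424, 441, 436, 438 and 423 FPKM in the WT group. The separation of mice 152 and 153 from the highest WT mouse was small. *Ndufa12*, a complex I subunit, was at 11.5, 21.7, 9.32, 17.6 and 18.5 FPKM against 7.25, 9.16, 8.0, 9.29 and 8.07 FPKM (log2 fold change 0.78, SE 0.20, adjusted p = 0.221, limma). Mouse 152 was the highest for this subunit, unlike for *Cox8a*. All 13 genes of the mitochondrial genome had a higher knockout mean (median 0.37), and *mt-Co3* separated at 19.2 to 27.7 against 12.8 to 19.1 FPKM.

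The fuel-burning pathways gave like counts. Fatty acid oxidation had 16 of 18 genes with a higher mean (median 0.19, and 0.10 with the macrophage covariate). At equal adipocyte marker level the median was −0.26, the unscaled median less the shift common to every gene. Against 1.42% of all genes, 3 of these 18 separated in the higher direction. Among these, *Slc25a20*, the carnitine carrier of the inner mitochondrial membrane, was tight within each group at 13.4, 12.9, 13.4, 12.8 and 12.7 against 11.6, 11.7, 11.6, 11.6 and 11.0 FPKM, a difference of only 1.13 times (adjusted p = 0.221, limma; 0.00763 by DESeq2). The tricarboxylic acid cycle had 18 of 19 higher (median 0.19, 0.06 with the covariate and, after the same shift, −0.26 at equal adipocyte marker level). Of the 19 genes 2 separated in the higher direction, among them malate dehydrogenase *Mdh2* at 58.8 to 76.7 against 53.4 to 58.2 FPKM. The lipase gene *Mgll* of the lipolysis list was at 234 to 281 against 203 to 218 FPKM. De novo lipogenesis had 9 of 14 genes higher (median 0.06), and *Ucp1*, the uncoupling protein of brown fat, stayed at or below 0.303 FPKM in all 10 libraries, under the level needed for testing.

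Among the genes lower in each knockout mouse, *Cxcr4*, the receptor of the chemokine CXCL12, was at 5.79, 8.91, 9.39, 5.53 and 6.30 FPKM in *Mlkl* Adi-KO mice and at 12.9, 13.9, 15.1, 13.2 and 13.3 FPKM in WT mice. The highest knockout value lay well under the lowest WT value (log2 fold change −0.87, SE 0.13, adjusted p = 0.0998, limma; 1.05e-05 by DESeq2), and −0.63 was left with the macrophage covariate (adjusted p = 0.0983, limma). Of the 11 chemokine receptors tested 10 had a lower mean, but their median was −0.08 and *Cxcr4* alone separated. Of the 23 chemokine ligands, *Ccl5*, a T cell chemokine, alone did so, at 3.002 to 4.36 against 5.01 to 8.73 FPKM. Over all genes tested, 1.59% separated in the lower direction. *Wee1*, a kinase that holds back entry into mitosis, was at 2.67, 3.61, 3.16, 2.53 and 3.01 FPKM against 6.84, 4.61, 5.75, 5.72 and 4.49 FPKM (−0.69, SE 0.11, adjusted p = 0.0998, limma), with −0.64 under the covariate (adjusted p = 0.35, limma). The 23 proliferation genes all had a lower mean (median −0.33), and all 23 had a positive sign with the covariate (median 0.08).

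*Cep85*, a centrosomal protein gene, was at 5.88 to 9.89 FPKM against 11.8 to 19.0 FPKM, and *Resf1*, a silencer of retroelements, at 1.83 to 2.94 against 3.67 to 5.40 FPKM. The protein-coding gene *C77080* (2.81 to 9.69 against 10.2 to 12.2 FPKM) and the long noncoding RNA gene ENSMUSG00000121048 (0.457 to 1.87 against 2.02 to 2.41 FPKM) had mice 156 and 157 far below mice 152 and 153. *Kcna5*, a potassium channel gene named after its values were seen, overlapped by its extremes at 1.76 to 4.10 against 3.97 to 4.81 FPKM and fell in the fit with the macrophage covariate (−0.80, SE 0.09, adjusted p = 0.0134, limma), but not in the fit without it (adjusted p = 0.221). That call was lost without knockout mouse 152 or 153 or WT mouse 154 or 162.

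Glucocorticoid-responsive genes did not follow the macrophage order of the mice. The 16 tested genes averaged −0.42, −0.47, −0.32, −0.02 and −0.27 in *Mlkl* Adi-KO mice, beside −0.25 to 0.18 in WT mice, with mice 151, 152 and 153 lowest. Of these genes 11 were lower (median −0.36, and −0.31 with the macrophage covariate). *Tsc22d3*, which encodes the glucocorticoid-induced leucine zipper protein, was at 23.8, 29.4, 31.1, 28.1 and 39.2 FPKM against 56.4, 39.9, 53.1, 51.2 and 43.8 FPKM (−0.68, SE 0.13, adjusted p = 0.194, limma; 0.0021 by DESeq2). *Sgk1*, a serum- and glucocorticoid-regulated kinase, was at 8.06, 10.4, 12.96, 10.2 and 7.76 FPKM against 16.3, 14.2, 17.8, 16.3 and 14.9 FPKM (−0.65, SE 0.12, adjusted p = 0.19, limma; 0.00155 by DESeq2). Mouse 153 was nearest to the WT group for *Sgk1* and mouse 157 for *Tsc22d3*. The clock repressor *Nr1d1*, whose level swings with the time of day, also separated the groups, at 32.6 to 46.3 against 19.99 to 28.3 FPKM. Of the 13 clock genes listed as high together with it, 10 were higher and 3 lower (median 0.09), and *Nr1d1* alone separated. The means of that list overlapped, at −0.08 to 0.34 against −0.14 to 0.12. Of 5 clock genes in antiphase 0 separated. Hours of tissue collection were not given in the sources used here, and their part was not tested.

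Because *Sgk1* is a known target of the glucocorticoid receptor, its promoter was searched. One of its 6 start sites in the RefSeq table (GRCm38.p6) held a full palindromic receptor motif on either strand, GNACA and TGTNC with 3 bases between, which 156 of 32851 promoter windows of 300 bases contained (0.475%). The window, plus strand, chr10:21993640-21993939, is shown 5′ to 3′ with the match in capitals.
*Sgk1*: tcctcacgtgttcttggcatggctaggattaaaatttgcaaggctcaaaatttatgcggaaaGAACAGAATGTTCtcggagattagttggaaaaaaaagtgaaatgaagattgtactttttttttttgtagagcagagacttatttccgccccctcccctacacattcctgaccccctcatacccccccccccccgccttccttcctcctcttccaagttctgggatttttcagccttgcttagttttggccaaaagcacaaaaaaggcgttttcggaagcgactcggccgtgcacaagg
The match begins 188 bases before the start site. It describes the sequence and was not tested for binding.

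Interferon-stimulated genes had slightly lower knockout means, close together among the 5 mice, and none was called. The 17 tested genes averaged −0.21, −0.17, −0.21, −0.18 and −0.23 in *Mlkl* Adi-KO mice, all inside the WT range of −0.29 to 0.28, and 16 had a lower mean (median −0.22, and −0.21 with the covariate). Outside that list, *Ifi207* and *Ifi205*, which belong to a mouse family of interferon-inducible proteins, separated the groups. *Ifi207* was at 10.3, 15.3, 18.6, 6.73 and 6.11 FPKM against 21.6, 19.98, 24.0, 20.2 and 21.4 FPKM (−0.97, SE 0.26, adjusted p = 0.221, limma). The knockout mice, but not the WT mice, stood in the order of their macrophage list means. With the covariate −0.42 was left. *Ifi205* was at 2.94, 5.01, 4.75, 2.49 and 2.20 FPKM against 8.48, 5.85, 6.33, 6.43 and 6.16 FPKM (−0.81, SE 0.18). These paralogs resemble each other, so reads may have been split between them.

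Their promoters are printed because both hold the core of an interferon-stimulated response element on either strand, GAAA and GAAA with 2 bases between, as did 1131 of the 32851 windows (3.44%). They come from RefSeq (GRCm38.p6), chr1:173741760-173742059 and chr1:174031706-174032005, both on the minus strand, 5′ to 3′ with matches in capitals.
*Ifi207*: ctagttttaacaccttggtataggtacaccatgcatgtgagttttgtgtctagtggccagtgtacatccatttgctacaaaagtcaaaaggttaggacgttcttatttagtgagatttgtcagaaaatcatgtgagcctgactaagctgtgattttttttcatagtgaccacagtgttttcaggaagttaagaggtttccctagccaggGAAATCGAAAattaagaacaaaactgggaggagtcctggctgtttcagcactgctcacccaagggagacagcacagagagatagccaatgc
*Ifi205*: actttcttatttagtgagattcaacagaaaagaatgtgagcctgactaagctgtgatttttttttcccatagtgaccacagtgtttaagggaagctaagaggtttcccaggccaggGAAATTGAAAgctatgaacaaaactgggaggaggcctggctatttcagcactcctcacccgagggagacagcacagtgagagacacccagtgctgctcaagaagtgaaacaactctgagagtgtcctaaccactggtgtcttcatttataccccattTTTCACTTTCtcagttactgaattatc
The motifs were chosen after the gene values were seen, and a match says nothing of use in these cells.

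**Figure D4:**
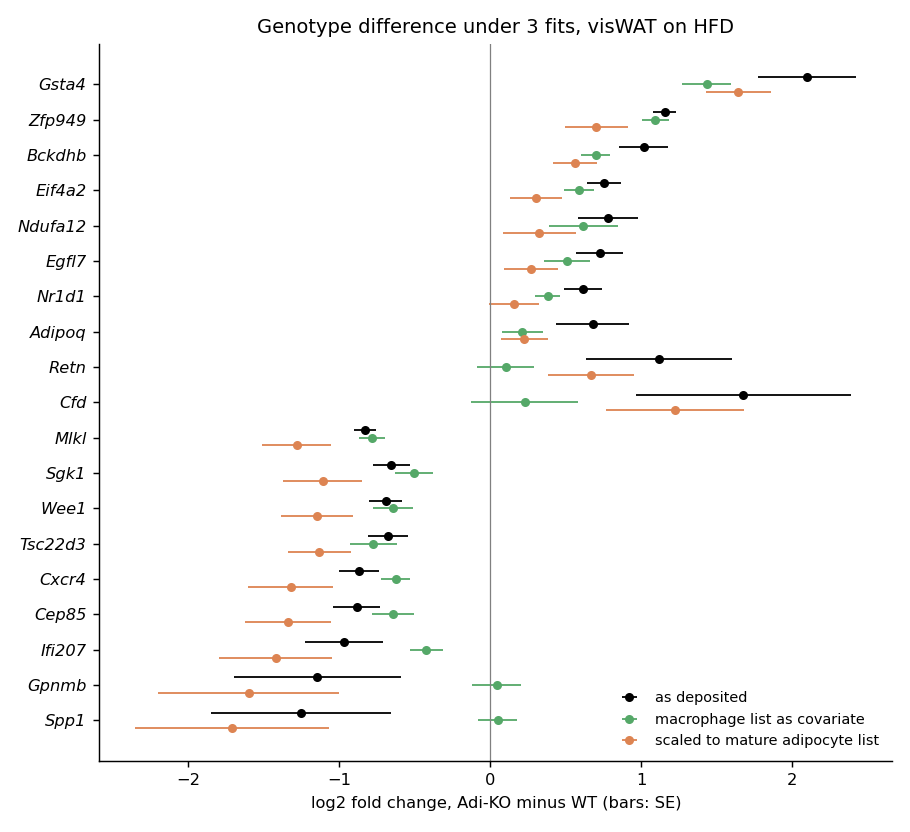
Log2 fold change (x axis) of named genes (y axis), Mlkl Adi-KO minus WT, with SE bars, as deposited (black), with the macrophage list as covariate (green) and scaled to the mature adipocyte list (orange). Spp1 and Gpnmb move to 0.05 with the covariate and Cfd to 0.23, whereas Gsta4 (1.43), Zfp949 (1.09), Mlkl (−0.78) and Wee1 (−0.64) remain apart from 0; the orange values carry the all-gene shift of −0.45.

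In the NF-kappaB and cytokine list 14 of 16 genes had a lower mean (median −0.22), which was −0.02 with the macrophage covariate. *Tlr4*, a receptor for bacterial lipopolysaccharide, separated the groups by a small margin, at 2.61, 3.52, 3.54, 2.29 and 2.24 against 3.61, 3.69, 4.05, 3.54 and 3.70 FPKM. The 9 genes of MHC class II had a median of −0.35, with 8 lower, and a median of −0.06 with the covariate.

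Among the called genes, *Zfp949*, a zinc finger protein gene (ENSMUSG00000032425, chromosome 9 of GRCm39, 88430073 to 88453114), was at 5.03, 4.58, 5.01, 6.29 and 4.60 FPKM in *Mlkl* Adi-KO mice and at 1.88, 1.80, 1.497, 1.78 and 1.68 FPKM in WT mice. It rose 2.95 times (log2 fold change 1.16, SE 0.08, adjusted p = 0.000211, limma) and kept 1.09 with the macrophage covariate (adjusted p = 0.00194, limma). The predicted gene *Gm11868*, a processed pseudogene on chromosome 4 whose reads may belong to a gene of like sequence, was at 1.31 to 2.13 FPKM against 0 to 0.0936 FPKM (log2 fold change 1.37, SE 0.09, adjusted p = 0.000211, limma). *Gm37614*, a predicted gene on chromosome 9 (88708657 to 88708866) named after its values were seen, was at 0.969 to 3.96 FPKM in the knockout mice and listed at 0 in all 5 WT mice.

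Separated genes were denser on chromosome 9 than elsewhere. Of its 763 tested genes 39 did not overlap (5.11%), against 1.82% to 3.81% on the other chromosomes. Between 75 and 90 Mb, a window chosen after the values were seen, 12 of 65 genes did so (18.5%), 6 higher and 6 lower, and *Gsta4*, *Bckdhb*, *Zfp949* and *Gm37614* all lie there. On chromosome 16, *Eif4a2* (22926194 to 22932886), encoding a translation initiation helicase, was at 63.3, 51.5, 46.8, 74.2 and 56.9 FPKM against 33.7, 31.4, 34.3, 36.6 and 33.3 FPKM (0.76, SE 0.11, adjusted p = 0.0998, limma; 6.47e-07 by DESeq2). *Rfc4* (22932693 to 22946487), a subunit of the clamp loader of DNA replication, was at 3.56 to 5.17 against 2.54 to 3.44 FPKM and rose in the fit with the covariate (0.57, SE 0.07, adjusted p = 0.037, limma), a call that held without knockout mouse 157 or WT mouse 155 and was lost without any other mouse. Both genes lie beside *Adipoq* (22965286 to 22976778), and *Eif4a2* and *Rfc4* overlap at their ends. Whether the Adipo-Cre transgene holds DNA of this region was not given in the sources used here. The part of such positions in the values was not tested.

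The livers of the same 10 mice gave a second reading in a tissue where *Adipoq* was at 2.70 FPKM or below. *Zfp949* was at 3.90, 3.90, 3.49, 3.77 and 4.06 FPKM in livers of *Mlkl* Adi-KO mice and at 2.04, 1.99, 2.32, 2.06 and 2.33 FPKM in WT livers, again without overlap. *Gm37614* was at 2.04 to 10.4 FPKM in the 5 knockout livers and listed at 0 in the 5 WT livers, and *Gm11868* was at 1.18 to 2.07 against 0 to 0.18 FPKM. *Eif4a2* (86.5 to 105 against 59.6 to 69.6 FPKM) and *Bckdhb* (76.4 to 85.5 against 60.5 to 67.9 FPKM) also separated in liver, each of these 5 genes with an exact permutation p of 0.00794 (two-sided). In all, 5 of the 22 genes examined in this way separated the genotypes in liver, where 2.62% of 13215 genes did. *Gsta4* overlapped there (52.4 to 79.8 against 40.2 to 57.3 FPKM), as did *Cxcr4*, *Sgk1*, *Wee1*, *Resf1*, *Cep85* and *Ifi207*.

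On NCD the same genes were read in 8 other mice, of which the library labelled WT 182 stood apart. Its *Mlkl* level of 2.29 FPKM lay in the range of the knockout mice (1.96 to 2.49 FPKM) and not with the other WT mice (3.91 to 5.11 FPKM), its *Gm37614* value (2.11 FPKM) lay in the knockout range, and its *Gm11868* value (1.55 FPKM) above it. Its *Zfp949* (3.52 FPKM) and *Eif4a2* (58.3 FPKM) levels in visWAT lay below all NCD knockout mice and were the highest of the WT group. In its liver *Mlkl* was at 4.19 FPKM, above all 4 NCD knockout livers (1.62 to 3.94 FPKM), and *Zfp949* was at 4.98 FPKM, also above them (3.61 to 4.18 FPKM). With that library kept in its group, 2 of the 22 genes separated the genotypes, *Zfp949* (6.11 to 7.15 against 2.26 to 3.52 FPKM) and *Eif4a2* (73.4 to 81.2 against 52.1 to 58.3 FPKM), where 2.46% of 14063 genes did; 4 against 4 mice cannot go below an exact p of 0.0286. Without it 9 of 22 did, *Mlkl*, *Gsta4*, *Cxcr4* and *Bckdhb* among them. No share of all genes is given for this smaller comparison, in which groups separate more easily. The library was set apart by its *Mlkl*, *Gm37614* and *Gm11868* values, so the separation of these genes without it follows from that choice. *Sgk1* and *Wee1* overlapped in either case.

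**Figure D5:**
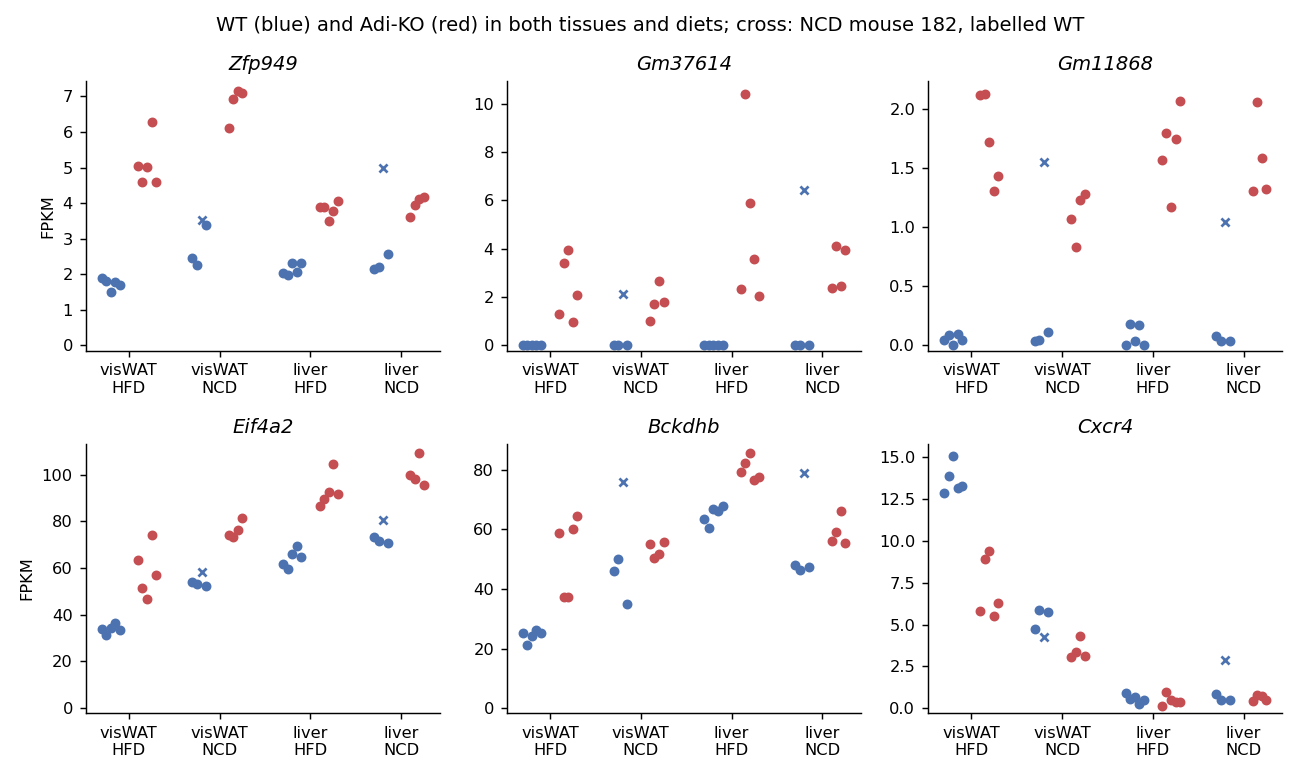
FPKM (y axis) of single genes in visWAT and liver on HFD (5 mice per genotype) and NCD (4 per genotype), with blue points for WT and red for Mlkl Adi-KO; the cross marks NCD mouse 182, labelled WT. Zfp949, Gm37614, Gm11868, Eif4a2 and Bckdhb separate the genotypes in both tissues on HFD, and Cxcr4 does so in visWAT, where it is at 5.53 to 15.1 FPKM, and not in liver.

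Blood RNA differed between the pads as well. The 5 red blood cell genes averaged 0.41, 1.13, 0.39, 3.05 and 1.30 in *Mlkl* Adi-KO mice, beside −0.57 to 0.51 in WT mice. *Hbb-bt*, a beta globin gene, was at 32.5, 55.8, 35.7, 179 and 61.8 FPKM against 29.7, 14.1, 18.4, 32.1 and 22.2 FPKM, separated by 0.312 FPKM between the nearest mice. *Hba-a1*, an alpha globin gene, was at 223 to 1575 against 119 to 242 FPKM. Globin paralogs share sequence, so their single values are uncertain. Mouse 156 was highest in blood as well as in endothelial genes; the part of blood in the other values was not tested. Markers of epididymis, which adjoins this fat pad, summed to at most 1.40 FPKM in any library, and those of seminal vesicle to at most 4.54 FPKM.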

How the data were processed

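RNA was sequenced from whole fat pads and livers, 1 library per mouse, aligned by the authors with HISAT2 and counted with featureCounts 1.5.0-p3 on mm39; the strand setting was not given in the sources used here. Gene FPKM values were deposited by the authors, and every value of the 10 libraries was a whole number of reads within 0.001, so counts were recovered from the deposited FPKM; these count data were used only for edgeR and DESeq2 as alternatives. The 98 other per-sample value columns were not used. From the 56748 listed genes, 13963 with a mean of at least 0.5 FPKM over the 10 mice were tested with limma 3.58.1 (R 4.3.3) on log2(FPKM + 1), with a trended variance and Benjamini-Hochberg adjustment, at an adjusted p under 0.05. Changes of low genes are understated on this scale. edgeR 4.0.16 and DESeq2 1.42.0 served as alternatives, and the scripts were tested on simulated data. Exact permutation tests covered single genes. The 45 lists, and the members compared, were chosen with earlier results of these data known. Genes were named as *Mlkl*, the called genes, those the study discusses, the 8 largest separated rises and falls, and for each list its most abundant members and its largest separated member; predicted genes were otherwise not named. Chosen after their values were seen were *Kcna5*, *Gm37614* and *Rfc4*, which the covariate fit called, and *Spp1*, *Gpnmb*, *Itgax*, *Atp6v0d2*, *Retn*, *Ripk3*, *Birc3* and *Slc25a20*; a further gene is not reported here. P-values judge the difference between genotypes against the spread between mice.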

Additional observations from a re-analysis of the deposited data

Results flagged for a closer look

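Of 184 groups of 5 mice examined, 10 held a value set apart from the other 4 beyond Dixon's limit, and chance flags about 1 in 20 groups. *Mlkl* Adi-KO mouse 156 was the highest of its group for *Hbb-bt* (179 FPKM, next 61.8), *Hba-a1* (1575 FPKM, next 441) and *Zfp949* (6.29 FPKM, next 5.03), and the lowest for the resident macrophage list (−0.21 on the log2 scale, next 0.02). Mouse 152 was the highest knockout mouse for the B and plasma cell list (0.80, next −0.24), and mouse 157 for de novo lipogenesis (0.68, next 0.09). Among WT mice, 161 was the highest for *Cep85* (19.0 FPKM, next 13.6) and for the hypoxia and glycolysis list (0.19, next −0.03). WT mouse 154 was the highest for *Ifi205* (8.48 FPKM, next 6.43), and WT mouse 164 the lowest for *Slc25a20* (11.0 FPKM, next 11.6).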

How the results depend on the processing

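The count of called genes, 3, was 146 with DESeq2 (85 higher, 61 lower), 15 with all 18 visWAT mice, 7 with the macrophage covariate, 1 at equal adipocyte marker level, and 3 to 16 with 1 mouse left out, 16 without knockout mouse 153. The fit at equal adipocyte level gave 5 calls with a pseudocount of 0.1 and 0 to 9049 with 1 mouse left out: 8377 without knockout mouse 152, 9049 without 153, 2 without WT mouse 154, and 0 without knockout mice 151 or 157 or WT mice 155, 161 or 164. The covariate fit gave 1 to 8. Separated genes numbered 467 to 1078 with 1 mouse left out (1078 without knockout mouse 152, 1030 without 153, 942 and 631 without WT mice 155 and 162), and 221 after adipocyte scaling, of which 217 were lower, and on the TPM scale 490 (65 higher, 425 lower); the former is an alternative chosen after seeing the data. With the covariate, also chosen after seeing the data for the lists, the macrophage median was −0.026, near 0 by construction, and the lipid-associated one 0.0896. With adipocyte scaling the medians were −0.073 (mature adipocyte), −0.66 (fibroblast), −0.22 (endothelial) and −0.19 (respiratory chain), beside −0.45 for all genes. With 1 mouse left out they ranged from −0.87 to −0.44 for macrophages, −0.76 to −0.31 for lipid-associated macrophages, 0.31 to 0.48 for mature adipocytes, −0.32 to −0.13 for fibroblasts, 0.15 to 0.34 for endothelium and 0.21 to 0.34 for the respiratory chain. The sign turned with the covariate for *Lyz2* (0.078), *Col3a1* (0.28), *Ripk3* (0.27), *Spp1* (0.051), *Gpnmb* (0.045) and *Atp6v0d2* (0.00601). It turned with adipocyte scaling for *Cidec* (−0.064), *Cldn5* (−0.069), *Mgll* (−0.20), *Mdh2* (−0.22), *mt-Co3* (−0.042), *Cox8a* (−0.034), *Rfc4* (−0.019) and *Slc25a20* (−0.29). This scaling lowered the log2 fold change of every gene by the same amount and moved the median of all genes to −0.45. The 8 turns of sign follow from that shift and tell nothing further about these genes. *Ripk3* was otherwise at 0.019 with edgeR and 0.0202 with DESeq2, and between −0.112 and 0.0855 with 1 mouse left out, above 0 without knockout mice 156 or 157 or WT mouse 155. *Mlkl*, *Zfp949* and *Gm11868* lost their calls with adipocyte scaling (adjusted p = 0.108 each, limma), at log2 fold changes of −1.28, 0.70 and 0.91. The cause of the other changes was not tested. No paired analysis was possible because the genotype groups share no mouse numbers.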
